A study of Mus musculus with 12 samples.

Results

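The expression of 10 iron, heme and ferritin genes was compared between aged and young mice in M-MDSCs, the monocytic fraction of the myeloid-derived suppressor cells, sorted from bone marrow. The genes were Fth1, Ftl1, Slc40a1, Tfrc, Slc11a1, Ireb2, Hmox1, Cd163, Hp and Hpx. They were chosen by name for their part in iron handling, and all 10 were found among the 23420 genes of the deposited count table. Of these 10, 9 were among the 9742 genes with enough counts to be tested, and Hpx was not. The cells were sorted as CD11b+Ly6G-Ly6Chi cells from bone marrow of 6 aged mice (24 months old) and 6 young mice (6 months old), with the tibia given as tissue in the labels. All 12 mice were male and of the C57BL/6JNIA strain, the labels name no treatment, and each mouse gave its own library of total RNA. Mice are named here by their age and the number in the labels, such as aged 1 or young 10.

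Iron enters most cells bound to transferrin through the transferrin receptor, is stored inside the ferritin shell and leaves through ferroportin. Macrophages of the bone marrow, spleen and liver also take up heme from old red cells, open its ring with heme oxygenase and return the iron to the blood. Iron regulatory proteins bind hairpins in messenger RNAs, the iron-responsive elements. When iron is scarce they hold back translation of ferritin and ferroportin and protect the transcript of the transferrin receptor, so part of this control leaves no trace in the amount of ferritin mRNA.

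The hairpin stretches of 4 of the 10 genes are shown, at the 5′ end of Fth1, Ftl1 and Slc40a1 and at the 3′ end of Tfrc. A stretch of C, any 5 bases and CAGTGN was searched on the transcript strand of the untranslated regions of 1 GENCODE M21 transcript per gene (GRCm38, the assembly that UCSC names mm10). N stands for any base, and the 5 bases between the bulged C and the loop had to pair with the 5 bases after the loop, with G-T pairs allowed. Only 21 of 20581 genes (0.102%) held such a stretch in the 5′ untranslated region, among them Fth1, Ftl1 and Slc40a1. In the 3′ untranslated region, 111 of 21662 genes (0.512%) held at least 1, and Tfrc was the only gene with 4. Capitals mark the bulged C and the loop.
Fth1, 5′ UTR, chr19:9982729-9982758, plus strand: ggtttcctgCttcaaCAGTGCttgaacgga
Ftl1, 5′ UTR, chr7:45459781-45459810, minus strand: tgtgtcttgCttcaaCAGTGTttgaacgga
Slc40a1, 5′ UTR, chr1:45925467-45925496, minus strand: ttccaacttCagctaCAGTGTtagctaagt
Tfrc, 3′ UTR, chr16:32631216-32631245, plus strand: gataattatCggaagCAGTGCcttccataa
Tfrc, 3′ UTR, chr16:32631595-32631624, plus strand: tcacattatCgggagCAGTGTcttccataa
Tfrc, 3′ UTR, chr16:32631660-32631689, plus strand: tgtctatatCggagaCAGTGAtctccatat
Tfrc, 3′ UTR, chr16:32631707-32631736, plus strand: cgtaattatCgggaaCAGTGTttcccataa

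A match of these letters is a description of the transcript and not evidence that a protein binds there. Among 5′ untranslated regions of a length like that of Fth1, 0.248% held as many such stretches as Fth1, and the share was 0.0786% for Ftl1 and 0.181% for Slc40a1. Among 3′ untranslated regions of a length like that of Tfrc, 0.0398% held 4, which is Tfrc alone. Each of these shares counts the gene itself.

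Between 8737941 and 16300374 fragments were counted per aged mouse and between 4613239 and 9079237 per young mouse, so low levels were measured less precisely in the young mice. Markers of classical monocytes were detected in every mouse, with a mean level of 721 CPM per kb for Itgam and 624.6 CPM per kb for Ly6c2 in the young mice. Itgam is also expressed by neutrophils, and the other 6 monocyte markers were far lower in the young mice, from 34.7 CPM per kb for Csf1r and 10.3 CPM per kb for Ccr2 down to 1.12 CPM per kb for Fcgr1. CPM is the count of a gene scaled to the normalized total of its library, and CPM per kb divides it by the exon length so that genes can be compared. On the same scale, transcripts of neutrophil granule proteins stood above these markers, at 26652 CPM per kb for Ngp and 7922 CPM per kb for Ltf in the young mice. The sum over 12 neutrophil genes was 93244 to 112069 CPM in the aged and 71738 to 98482 CPM in the young mice. These levels go against a label of monocytes alone, and the cells are called M-MDSCs here after their sort. The alignment files carry sample numbers of 11 to 16 for the young mice and of 17 to 19 and 24 to 26 for the aged mice, so age and the order of the samples cannot be told apart.

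The most abundant of the 10 genes per length was Hp in both ages, followed by Ftl1, Fth1, Slc40a1, Slc11a1, Hmox1, Ireb2, Tfrc, Cd163 and Hpx. In the aged mice the mean level was 1542 CPM per kb for Hp, 1177 for Ftl1, 416 for Fth1 and 159.9 for Slc40a1. Slc11a1 had 87.9 CPM per kb, Hmox1 50.8, Ireb2 19.7, Tfrc 3.995 and Cd163 2.11 in the same mice. Ranges of Hp and Ftl1 overlapped in both ages, and so did those of Slc11a1 and Hmox1 and of Tfrc and Cd163 in the aged mice and those of Hmox1 and Ireb2 in the young mice. No other neighbours in the order overlapped. Transcripts for storing iron were therefore far more abundant per length than the transcript for taking it up with transferrin, at either age.

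Of the 9 genes tested, 8 differed between the ages at an adjusted p-value under 0.05 in edgeR's quasi-likelihood test, where 45.4% of all genes tested did. Of these 8, 7 were higher in the aged mice, namely Fth1, Ftl1, Slc40a1, Slc11a1, Hmox1, Cd163 and Hp, beside 22.4% of all genes tested. Tfrc was the 1 gene that was lower, beside 23% of all genes tested. The median log2 fold change of the 9 genes was 0.47, against 0.01 over all genes tested. The count of 8 fell to 5 without young 5 and without young 6, beside 3804 of 9795 and 3831 of 9788 of all genes. With a correction for gene length it was 4, beside 3387 of 9742. In sorted cells that are sequenced in bulk, more cells of a type and more RNA per cell cannot be told apart.

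**Figure D1:**
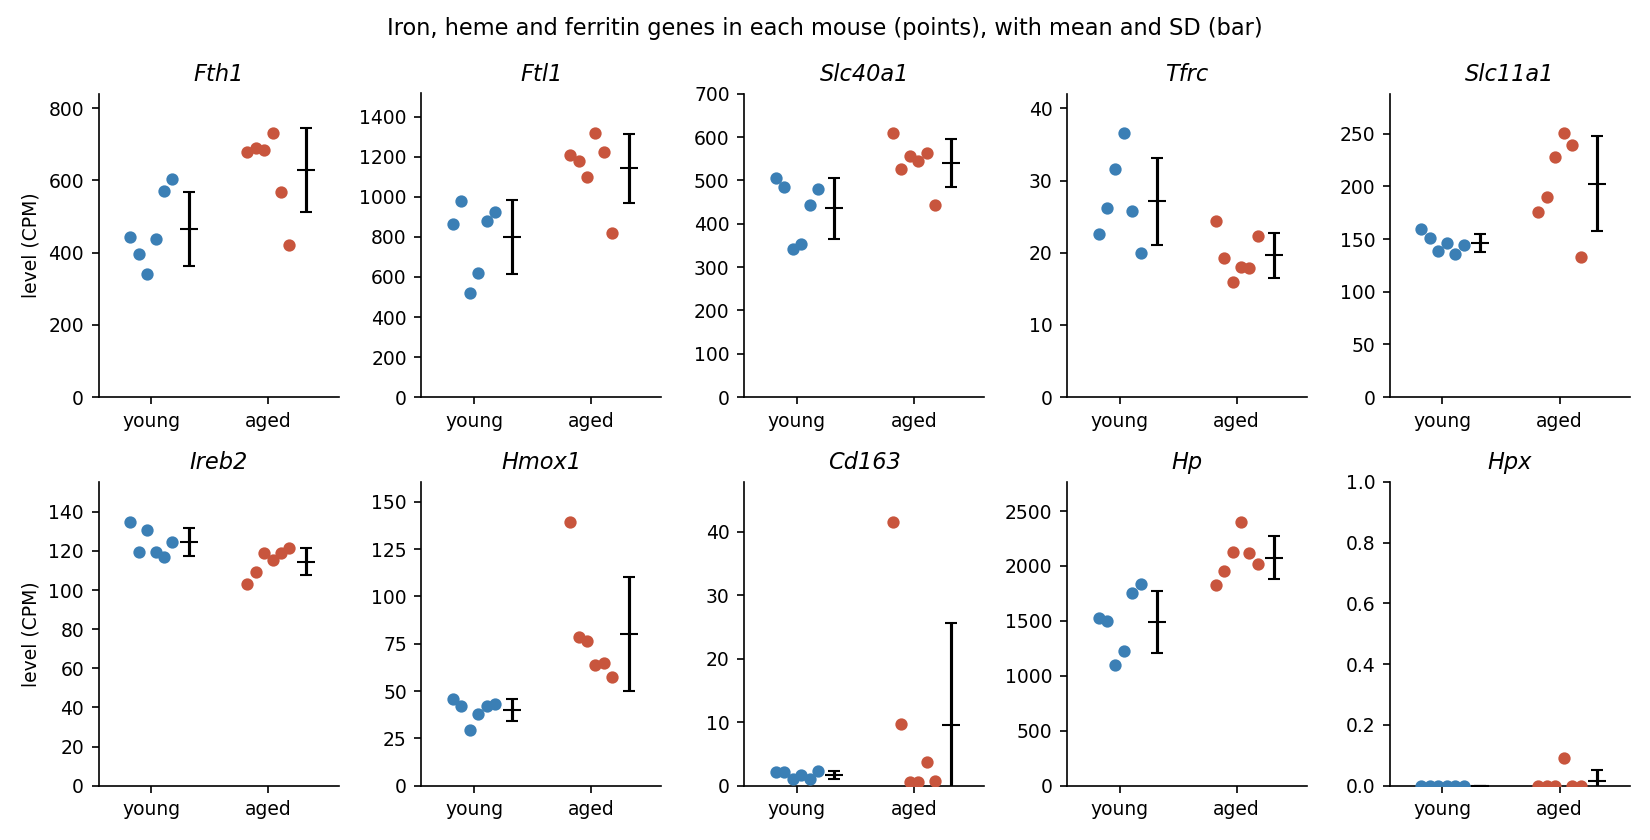
Level of each of the 10 genes (CPM, linear axes from 0), with 1 point per mouse (blue, 6 young mice; red, 6 aged mice) and the mean and SD of each age as a bar, which for Cd163 in aged mice is drawn from 0 up. Hmox1 is the only gene whose aged and young points do not overlap, and the Cd163 mean of the aged mice follows 1 mouse at 41.6 CPM.

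The ferritin shell is built from the heavy chain, which oxidizes iron, and the light chain, which helps to lay the mineral down. The heavy chain gene Fth1 (mm10, chr19:9980600-9985111, plus strand, 5 exon intervals, 1511 exonic bases) had a level of 421 to 731 CPM in the aged mice (median 681) and of 341 to 605 CPM in the young mice (median 441). The levels of 4 aged mice lay above every young mouse, and aged 7 lay below the young median. The mean was 629 ± 116 CPM (SD, n = 6) in aged against 465.7 ± 102 CPM in the young, which gave a log2 fold change of 0.43 (SE 0.15, edgeR adjusted p = 0.0279).

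The light chain gene Ftl1 (chr7:45457944-45459886, minus strand, 4 exon intervals, 970 exonic bases) ranged from 821 to 1318 CPM in the aged mice (median 1195) and from 521 to 980 CPM in the young mice (median 873). All aged mice but aged 7 were above all young mice. Its mean was 1142 ± 172 CPM (SD, n = 6) in aged and 798 ± 184 CPM in the young, for a log2 fold change of 0.52 (SE 0.15, edgeR adjusted p = 0.0115). Both chains have near-identical processed copies in the mouse genome, and fragments that align equally well to a copy were removed by the authors' mapping quality filter, so the levels of Fth1 and Ftl1 are uncertain by that loss.

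The rise of the ferritin chains was not held under every setting. With a correction for gene length, the log2 fold change was 0.22 for Fth1 (edgeR adjusted p = 0.187) and 0.16 for Ftl1 (edgeR adjusted p = 0.267), and Fth1 also lost its call when any of aged 2, aged 5, young 1, young 2, young 5 or young 6 was left out (adjusted p between 0.0517 and 0.0619).

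Ferroportin, encoded by Slc40a1, is the exporter through which macrophages release iron (chr1:45908070-45925594, minus strand, 8 exon intervals). Its level was 443 to 609 CPM in the aged mice (median 551) and 343 to 505 CPM in the young mice (median 462). Of the 6 aged mice, 5 lay above all young mice, and aged 7 was within the young range. The mean was 540 ± 55.2 CPM (SD, n = 6) against 435 ± 70.5 CPM, a log2 fold change of 0.31 (SE 0.11, edgeR adjusted p = 0.0252). The call was lost without aged 1 (0.28, adjusted p = 0.0541), without young 5 (0.25, adjusted p = 0.0546), without young 6 (0.26, adjusted p = 0.0586) and with library totals in place of TMM factors (0.24, adjusted p = 0.0518).

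Tfrc encodes the transferrin receptor, through which dividing cells above all cover their need for iron (chr16:32608896-32632794, plus strand, 19 exon intervals, 4914 exonic bases). It was at 15.9 to 24.4 CPM in the aged mice (median 18.6) and at 20.002 to 36.6 CPM in the young mice (median 25.97). In 4 aged mice it was below all young mice, and aged 1 and aged 7 were within the young range. The mean was 19.6 ± 3.15 CPM (SD, n = 6) in aged and 27.1 ± 6.04 CPM in the young, which is a log2 fold change of -0.47 (SE 0.14, edgeR adjusted p = 0.0152). With the correction for gene length it was -0.28 (edgeR adjusted p = 0.114).

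Genes of dividing cells were read beside Tfrc. The sum over 10 such genes, of which Top2a and Mki67 were the most abundant, was 425 to 935 CPM in the aged mice, with aged 7 the highest, and 753 to 1409 CPM in the young mice, with young 5 and young 6 the highest. These 2 young mice also had the highest Tfrc level and the lowest levels of Ftl1, Slc40a1 and Hp among the young, while aged 7 had the lowest levels of Fth1, Ftl1, Slc40a1 and Slc11a1 among the aged. Of the 10 genes, 3 were called lower in the aged mice (Mki67, Top2a and Bub1), beside 23% of all genes tested, none was called higher, and none was at 0 in all mice. The list's median log2 fold change was -0.09, and values such as -0.04 for Cdk1, 0.01 for Plk1 and 0.17 for Ccnb1 did not pass the test. The part of dividing cells in the differences of the iron genes was not tested.

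Slc11a1 encodes NRAMP1, a transporter that moves iron and manganese out of the phagosome of macrophages and neutrophils (chr1:74375203-74386051, plus strand, 15 exon intervals). It had 133 to 251 CPM in the aged mice (median 209) and 136 to 160 CPM in the young mice (median 145). The young mice lay close together, 5 aged mice lay above all of them and aged 7 lay below all of them. The mean was 203 ± 44.99 CPM (SD, n = 6) against 146 ± 8.73 CPM, a log2 fold change of 0.47 (SE 0.13, edgeR adjusted p = 0.00683), and the call was held without any single mouse, with log2 fold changes from 0.41 to 0.58.

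Ireb2, which encodes iron regulatory protein 2, a reader of the hairpins shown above, was the 1 tested gene without a call (chr9:54863755-54912534, plus strand, 22 exon intervals, 5808 exonic bases). Its level was 103 to 121 CPM in the aged mice (median 117) and 117 to 135 CPM in the young mice (median 122). The ages overlapped, with 3 aged mice below all young mice. The log2 fold change was -0.12, with a 95% interval from -0.25 to 0.01 (edgeR adjusted p = 0.128), so a fall of that size is within the interval and a rise beyond 0.01 is not. The direction turned with the correction for gene length (0.14, edgeR adjusted p = 0.0710), and with library totals in place of TMM factors the gene was called lower (-0.21, edgeR adjusted p = 0.0152).

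**Figure D2:**
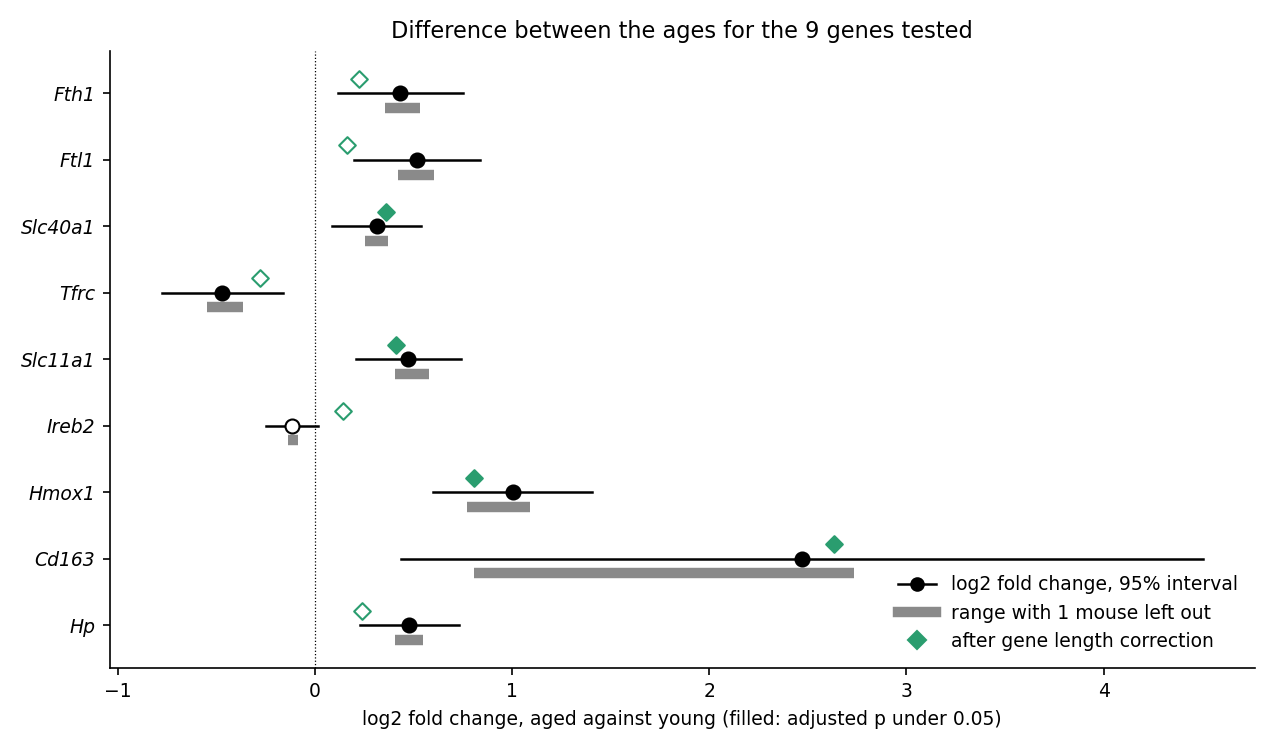
Log2 fold change of aged against young mice for the 9 genes tested (circles, with 95% intervals as lines), its range when each of the 12 mice was left out in turn (grey bars) and its value with a correction for gene length (diamonds). Filled symbols have an adjusted p-value under 0.05, and the diamonds of Fth1, Ftl1, Tfrc and Hp are open while their circles are filled.

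The balance of these genes was also compared within each library, as a ratio of levels per length that does not depend on how libraries are scaled. Exact permutation tests over the mice were run on 3 ratios (two-sided, smallest possible p = 0.00216), with adjustment over the 3. The ratio of Slc40a1 to Tfrc, of export to uptake, was 28.8 to 50.6 in the aged and 14.03 to 34.8 in the young mice. It lay above all young mice in 5 aged mice and within the young range in aged 7. It was 1.71-fold higher in the aged mice (log2 difference 0.78, exact permutation p = 0.00866, adjusted 0.0260).

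The ratio of Tfrc to Fth1, of uptake to storage, was 0.00717 to 0.0163 in the aged and 0.0102 to 0.0285 in the young mice, a log2 difference of -0.89 (exact permutation p = 0.0173, adjusted 0.0260). The ages overlapped, with young 10 the lowest of the young and aged 7 the highest of the aged mice. The ratio of Fth1 to Ftl1, of the heavy to the light chain, was 0.298 to 0.401 in the aged and 0.260 to 0.456 in the young mice. Its log2 difference was -0.10 (exact permutation p = 0.476, adjusted 0.476), so no shift between the chains was detected beyond the spread between mice. The ratios were not corrected for gene length, which moved the log2 fold changes of both Fth1 and Tfrc towards 0 above.

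**Figure D3:**
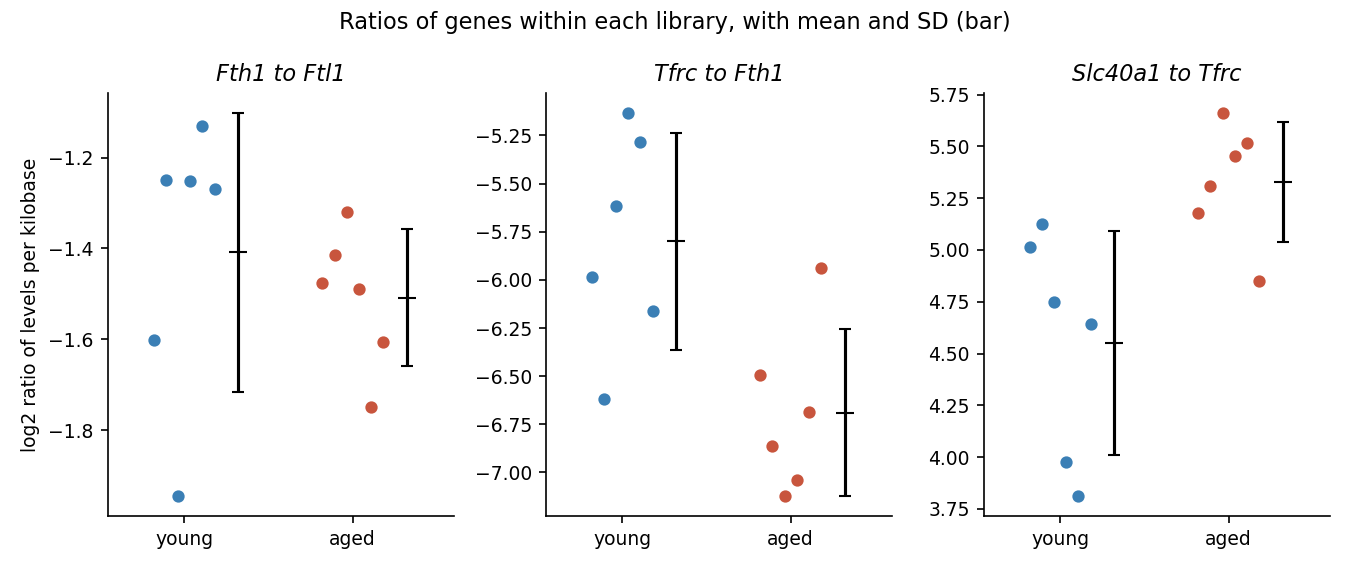
Log2 ratio of levels per kilobase of exon for 3 pairs of genes in each library (blue, 6 young mice; red, 6 aged mice), with the mean and SD of each age as a bar; the vertical axes do not start at 0. The Slc40a1 to Tfrc ratio is higher in 5 of the 6 aged mice than in all young mice, while the Fth1 to Ftl1 ratios of the ages overlap.

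Hmox1 encodes heme oxygenase 1, the inducible enzyme that releases iron from heme (chr8:75093618-75100593, plus strand, 5 exon intervals), and showed the clearest difference of the 10 genes. Its level was 57.3 to 139 CPM in the aged mice (median 70.6) and 29.2 to 45.7 CPM in the young mice (median 42.0). All 6 aged mice lay above all 6 young mice, which 9.68% of the genes tested did, and aged 1 lay far above the other 5 aged mice. The mean was 80.1 ± 30.2 CPM (SD, n = 6) in aged and 40.01 ± 5.84 CPM in the young, a 2.003-fold rise (log2 fold change 1.002, SE 0.19, edgeR adjusted p = 8.27e-04). Without aged 1 the log2 fold change was 0.77 (edgeR adjusted p = 2.72e-04), and the call was held under each alternative setting that was run.

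Cd163, the receptor for complexes of hemoglobin and haptoglobin and a marker of resident macrophages (chr6:124304651-124330527, plus strand, 17 exon intervals), was called higher on the strength of few mice. The aged mice ranged from 0.642 to 41.6 CPM (median 2.19) and the young mice from 0.977 to 2.37 CPM (median 1.89). Aged 1 stood at 41.6 CPM, aged 2 at 9.67 and aged 6 at 3.69, while the other 3 aged mice, with 6 to 11 counts each, were below all young mice. The mean was 9.49 ± 16.1 CPM (SD, n = 6) against 1.72 ± 0.601 CPM, a log2 fold change of 2.47 (SE 0.96, edgeR adjusted p = 0.0460). Without aged 1 it was 0.81 (edgeR adjusted p = 0.347), without aged 1 and aged 2 it was -0.25 (edgeR adjusted p = 0.721), and limma-voom gave 0.57 (adjusted p = 0.663).

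Other markers of resident macrophages were also high in these aged mice. Over 11 such genes, the summed level was 93.2 to 1223 CPM in the aged mice (1223 in aged 1, 394 in aged 2) and 81.7 to 100.2 CPM in the young mice. All 10 of the list's tested genes were called higher, beside 22.4% of all genes tested, among them Vcam1 and Axl as the most abundant, and none of the 11 was at 0 in all mice. Hmox1, Slc40a1 and Cd163 are all genes that such macrophages are known to express. Without aged 1 and aged 2, a choice made after seeing the data, 5 of the 9 genes had a call, beside 3799 of 9845 genes tested. Hmox1 had a log2 fold change of 0.72 (edgeR adjusted p = 0.00106) in that fit. Slc40a1 had 0.29 (adjusted p = 0.0745) and Fth1 0.38 (adjusted p = 0.101) there. The part of macrophages in these differences was not tested.

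**Figure D4:**
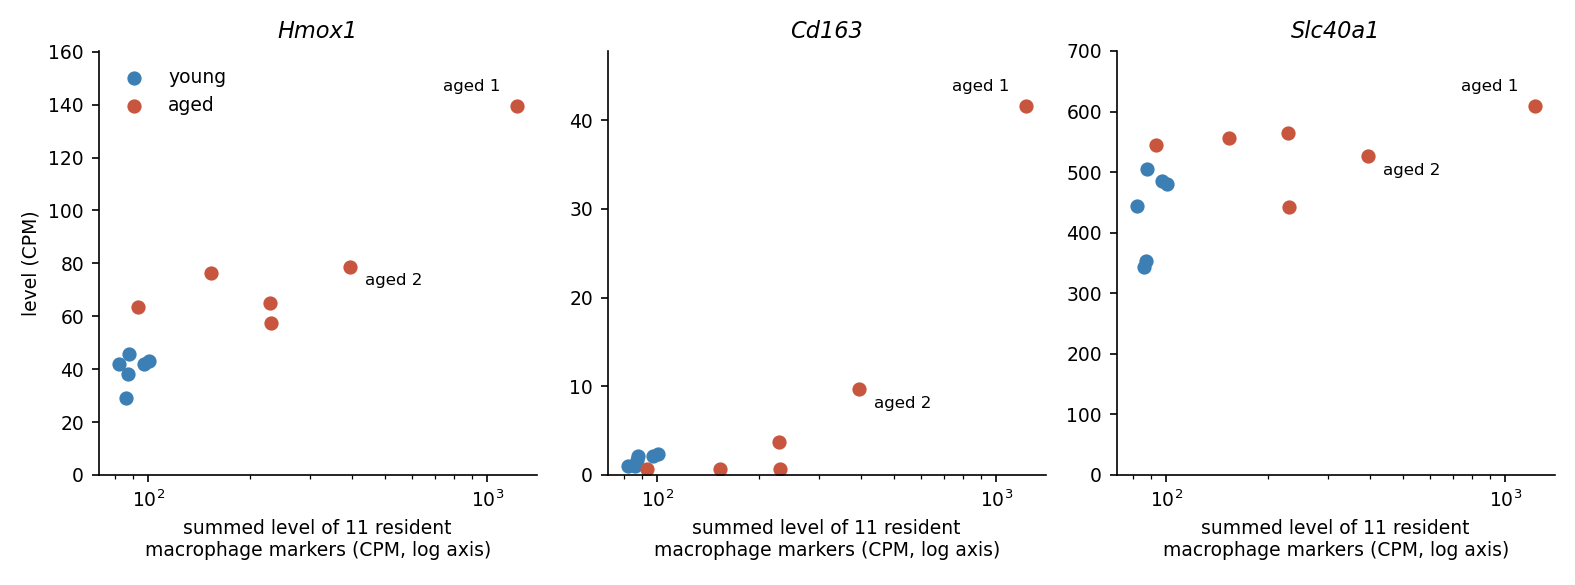
Level of Hmox1, Cd163 and Slc40a1 (CPM, linear axes from 0) against the summed level of 11 resident macrophage markers (CPM, log axis), with 1 point per mouse (blue, young; red, aged). Aged 1 and aged 2 have the highest sums, 1223 and 394 CPM, and the young mice have sums of 81.7 to 100.2 CPM.

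Red cell precursors are the other cells of the marrow that handle much heme. None of the 11 erythroid genes in the table reached the tested level, and the sums were 1.604 to 19.96 CPM in the aged mice, with aged 1 the highest, and 0.391 to 2.36 CPM in the young mice. The alpha globin genes Hba-a1 and Hba-a2 were at 0 in all 12 mice, but they are near-identical copies, whose shared fragments the mapping quality filter removes, so their 0 says nothing of erythroid RNA. The CD11b+ gate of the sort is meant to remove red cell precursors, and the part of erythroid RNA in the differences was not tested.

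Hp encodes haptoglobin, which binds free hemoglobin and is stored in granules of neutrophils besides being made by the liver (chr8:109575128-109579172, minus strand, 5 exon intervals, 1345 exonic bases). It had 1826 to 2404 CPM in the aged mice (median 2067) and 1103 to 1834 CPM in the young mice (median 1511). Again 5 aged mice lay above all young mice, and aged 1 was just under young 10. The mean was 2074 ± 196 CPM (SD, n = 6) against 1489 ± 286 CPM, a log2 fold change of 0.48 (SE 0.12, edgeR adjusted p = 0.00446). With the correction for gene length it was 0.24 (edgeR adjusted p = 0.0652). Of 12 neutrophil genes, 8 were called higher, beside 22.4% of all genes tested, and none lower in the aged mice, none was at 0 in all mice, and their part in the difference of Hp was not tested. The Ly6G- gate of the sort is meant to remove neutrophils.

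Hpx, the gene of the heme scavenger hemopexin that the liver makes (chr7:105591611-105600116, minus strand, 10 exon intervals), had 1 count in all, in aged 5, and 0 in the other 11 mice. A count of 0 allows up to 3 counts, or 0.188 to 0.350 CPM per aged and 0.306 to 0.643 CPM per young library, for counting error only. An exact permutation test could not detect a difference, because 1 count gives the same size of difference in every regrouping of the mice.

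The aged mice were also taken in 2 groups by file number. In the 3 aged mice numbered 17 to 19 against all young mice, 6 of the 9 genes were called, beside 3444 of 10026 genes tested, without Tfrc (-0.46, edgeR adjusted p = 0.0858), Hp (0.40, edgeR adjusted p = 0.0513) and Ireb2. In the 3 aged mice numbered 24 to 26, Hmox1 (0.65), Slc11a1 (0.52) and Hp (0.56) were called, beside 3014 of 9943 genes tested, with log2 fold changes of 0.31 for Fth1, 0.50 for Ftl1, 0.26 for Slc40a1 and -0.48 for Tfrc that did not pass the test. Cd163 was at -0.04 there (edgeR adjusted p = 0.966), and its rise was thus seen only with the first 3 aged mice in this split; whether the 2 sets of aged mice differ was not tested.

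To place the 10 genes among others of iron and heme metabolism, 89 further genes in 6 lists were read from the same fit. Of these, 61 were tested, 19 were called higher and 3 lower in the aged mice, 36.1% in all against 45.4% of all genes tested. Their median log2 fold change was 0.24.

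Among genes of ferritin turnover and iron chaperones, 3 of 9 tested rose and 2 fell, beside 22.4% and 23% of all genes tested, and 4 did not pass the test, with a median log2 fold change of 0.01. Pcbp1 (0.24, edgeR adjusted p = 0.00633) and Pcbp2 (0.26, edgeR adjusted p = 0.0143) encode chaperones that deliver iron to ferritin, and Cisd2 (0.27, edgeR adjusted p = 0.0446), an iron-sulfur protein, rose as well, though Cisd2 lost its call in 8 of the 12 fits with 1 mouse left out and in 6 of the 8 alternative settings of tool, scaling, filter, length and depth. Herc2, a ubiquitin ligase that acts on the ferritin receptor NCOA4, was at 71.7 to 121 CPM in the aged and 155 to 213 CPM in the young mice. All aged mice were below all young mice (log2 fold change -0.88, SE 0.11, edgeR adjusted p = 5.12e-05), and with the correction for gene length the value was -0.11. Slc25a37, the mitochondrial iron importer mitoferrin-1, fell by 0.71 on the log2 scale (edgeR adjusted p = 0.00328). Ncoa4, which carries ferritin to the lysosome, was nearly level (0.01), and the values were -0.06 for Aco1, 0.29 for Fbxl5 and -0.26 for Slc25a28.

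Of the iron uptake and release genes, 3 of 7 tested rose, beside 22.4% of all genes tested, and none fell, with a median of 0.35. With DESeq2, 6 were called higher, beside 2464 of 12754 of all genes, and with no filter on low counts 5 were, beside 2316 of 15827, both with more genes tested. Steap4, a metalloreductase that turns ferric into ferrous iron, was at 21.9 to 106 CPM in the aged and 2.28 to 12.3 CPM in the young mice. Every aged mouse lay above every young mouse, and the rise was 7.49-fold (log2 fold change 2.91, SE 0.38, edgeR adjusted p = 6.68e-05). Snx3, which sorts the transferrin receptor back to the cell surface, had 112 to 132 CPM in aged and 72.8 to 99.1 CPM in young mice (0.47, edgeR adjusted p = 5.90e-04). Lcn2, the siderophore-binding lipocalin of neutrophil granules and also on the neutrophil list above, rose by 0.35 (edgeR adjusted p = 0.0131), which turned to -0.06 with the correction for gene length. Trf (0.34), Hfe (0.74), Mcoln1 (-0.12) and Exoc6 (0.04) were not called. The list's other 15 genes were not tested, among them the hepcidin gene Hamp, Slc11a2, Slc39a14 and Cp.

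Heme synthesis had 5 of 9 tested genes higher, beside 22.4% of all genes tested, and none lower, with a median of 0.26. Alas1, the first and rate-limiting enzyme in cells other than red cell precursors, was at 229 ± 25.3 CPM (SD, n = 6) in aged and 192 ± 9.30 CPM in young mice (0.26, edgeR adjusted p = 0.0113), and lost its call with library totals in place of TMM factors (0.17, edgeR adjusted p = 0.0628). Tmem14c, needed for bringing protoporphyrinogen into mitochondria, rose by 0.67 (SE 0.13, edgeR adjusted p = 9.36e-04) with no overlap between the ages. Fech, which inserts iron into the ring, had 10.6 to 17.2 CPM in aged and 7.03 to 10.55 CPM in young mice (0.55, edgeR adjusted p = 0.00473), and Urod (0.46) and the porphyrin transporter Abcb6 (0.52) were called too. Abcb6 lost its call with libraries thinned to the smallest total (0.42, edgeR adjusted p = 0.0996). Ppox (-0.56), Abcb10 (0.16), Uros (-0.10) and Cpox (0.07) did not pass the test.

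Heme breakdown and transport had 4 of 8 tested genes higher, beside 22.4% of all genes tested, and none lower, with a median of 0.38. Slc48a1, which carries heme out of the phagolysosome, was at 53.3 to 107 CPM in the aged and 31.6 to 53.9 CPM in the young mice. The ages touched only at aged 7 and young 1, and the log2 fold change was 0.77 (SE 0.16, edgeR adjusted p = 0.00162). Blvrb, a biliverdin reductase, had 4.92 to 12.9 CPM in aged and 1.95 to 6.27 CPM in young mice (1.01, SE 0.26, edgeR adjusted p = 0.00588). The constitutive heme oxygenase Hmox2 rose by 0.29 (edgeR adjusted p = 0.00909) and the heme-binding Pgrmc1 by 0.47 (edgeR adjusted p = 0.00285). With the correction for gene length, Hmox2 was at 0.049 (edgeR adjusted p = 0.593) and Blvrb at 0.61 (edgeR adjusted p = 0.0523). In that fit 2 genes of the list were called higher, beside 1783 of 9742 of all genes tested. Abcg2 (0.49), Blvra (0.29), Lrp1 (0.16) and Flvcr1 (-0.03) were not called.

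Iron-sulfur cluster assembly had 4 of 20 tested genes higher, a share near the 22.4% of all genes tested, and none lower, with a median of 0.24. Without aged 7 the count was 7, beside 2366 of 9804 of all genes called higher in that fit. Fam96a, a factor of the cytosolic assembly route, had 41.7 to 53.7 CPM in aged and 21.8 to 30.2 CPM in young mice, with no overlap (0.79, SE 0.10, edgeR adjusted p = 4.75e-05). The others were Nubp2 (0.57), the scaffold gene Iscu (0.45) and Nfu1 (0.29), and these 3 were chosen for mention after their values were seen. With the correction for gene length, Iscu was at 0.046 and Nfu1 at -0.086, neither with a call. Of 8 tested regulators that respond to heme or iron, 1 was called, Zfp36, against 45.4% of all genes tested, and Maf was close to the threshold (1.10, edgeR adjusted p = 0.0593). The ages overlapped for Maf, at 1.76 to 18.6 CPM in the aged and 1.97 to 4.14 CPM in the young mice. DESeq2 called 4 genes of this list higher (2464 of 12754 of all genes), no filter on low counts gave 3 higher (2316 of 15827), and library totals gave 3 lower (2762 of 9742). Zfp36 encodes tristetraprolin, which speeds the decay of mRNAs with AU-rich ends, and was at 293 to 389 CPM in the aged and 526.1 to 918 CPM in the young mice. All aged mice lay below all young mice (log2 fold change -1.05, SE 0.13, edgeR adjusted p = 5.20e-05).

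The transcription factors that control Hmox1 are among these regulators, and were chosen for mention after their values were seen. Bach1, its repressor, had 249 ± 33.5 CPM (SD, n = 6) in aged and 243 ± 25.7 CPM in young mice, Nfe2l2, its activator, 202 ± 17.8 against 219 ± 22.3 CPM, and Keap1, which holds the activator back, 37.4 ± 3.49 against 36.4 ± 3.48 CPM. None of the 3 passed the test (edgeR adjusted p = 0.769, 0.236 and 0.686). With library totals in place of TMM factors, Nfe2l2 was called lower (-0.20, edgeR adjusted p = 0.0302), and with the correction for gene length Bach1 was called higher (0.30, edgeR adjusted p = 0.0363). With the correction for gene length Herc2, Pcbp1, Cisd2, Lcn2, Blvrb, Hmox2, Urod, Iscu and Nfu1 had no call, and Fbxl5, Slc25a28 and Ppox gained one.

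**Figure D5:**
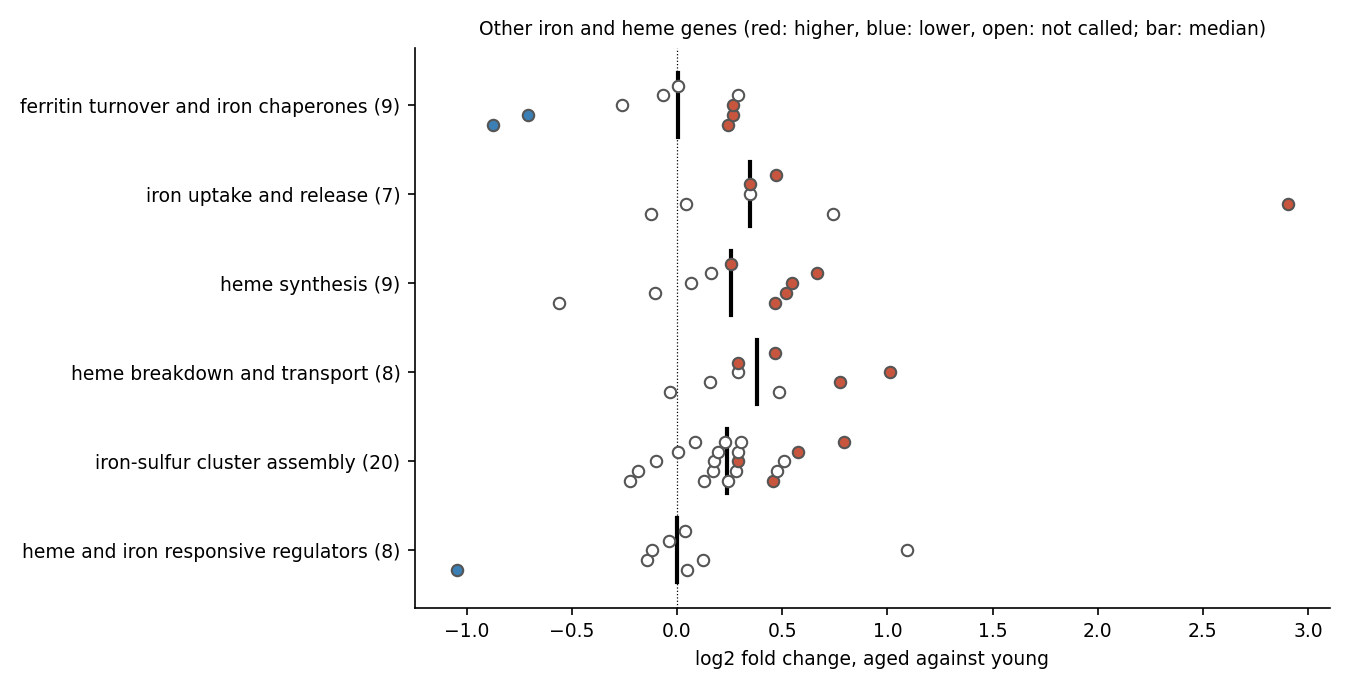
Log2 fold change of aged against young mice for 61 tested genes in 6 lists of iron and heme metabolism, with 1 point per gene (red, called higher; blue, called lower; open, not called), the number tested in brackets and the median of each list as a bar. The point near 2.91 is Steap4, and called falls appear for Herc2 and Slc25a37 in the top list and for Zfp36 in the bottom list.

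The genes whose level varied most like each of the 9 tested genes within an age were listed by Pearson's r of log2 CPM over the 12 mice after subtracting the mean of each age, as a description only. For Ftl1 they were Psmb4 (r = 0.99) and Smpd1 (r = 0.98), for Hp Anxa2 (r = 0.98) and Nfe2 (r = 0.98), and for Fth1 Serf2 (r = 0.94) and Eif1a (r = 0.91). For Slc40a1 they were Neurl3 and 1810058I24Rik (both r = 0.96), for Slc11a1 H2-Q10 (r = 0.95) and Abtb1 (r = 0.94), and for Tfrc Slc1a5 (r = 0.94) and Adrbk2 (r = 0.90). Hmox1 was most like Cd81 (r = 0.95) and Daglb (r = 0.94), Cd163 like Ccr3 (r = 0.96) and H2-Aa (r = 0.95), and Ireb2 like Scaper (r = 0.90) and Fgd4 (r = 0.88). Among the 10 genes themselves, Ftl1 and Slc40a1 had an r of 0.91 and Tfrc and Hp one of -0.79. The libraries share depth, length effects and the cells present, all of which enter these values.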

How the data were processed

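RNA of sorted bone marrow M-MDSCs was sequenced in pairs of reads from 6 aged and 6 young mice, with 1 stranded library per mouse. The deposited values are raw counts of fragments per gene, which the authors made with featureCounts 2.0.0 over exons of a UCSC mm10 annotation, reverse-stranded, with both ends aligned to 1 chromosome and a minimum mapping quality of 60. What aligned the reads is not given in the sources used here. The exon length per gene comes from the same deposited table.

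Groups came from the sample labels. Counts were fitted with edgeR 4.0.16 in R 4.3.3 (filterByExpr, TMM factors, quasi-likelihood test, Benjamini-Hochberg adjustment over the 9742 genes tested, threshold 0.05). CPM express a count relative to the total of its library after TMM normalization. Separate mice were the replicates, the biological coefficient of variation was 15.7%, and no pair of the same age matched within sampling noise (smallest chi-square per gene 1.67). The smallest library, of 4613239 fragments, limits precision to 0.643 CPM for a floor of 3 counts.

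Alternatives were DESeq2 1.42.0, limma-voom (limma 3.58.1), library totals, upper quartile factors, 2 count filters, a loess correction for gene length, thinning, leaving out each mouse and a replicate block. Gene symbols were matched by name, in part through RefSeq synonyms. The 10 genes, the lists and the rules were chosen with earlier results of these data known. Named from each list were the largest called rise and fall, the smallest p-value and, where 5 or fewer, the genes not called; other called genes of the lists were chosen after their values were seen. A further item is not reported here. The scripts were tested on simulated data.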

Additional observations from a re-analysis of the deposited data

Results flagged for a closer look

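In 122 sets of 6 mice of 1 age, Dixon's criterion at 95% found 11 in which 1 mouse stood apart from the other 5, and chance alone gives about 5% of sets. Aged 1 did so for Hmox1 (139 CPM, the other aged mice 57.3 to 78.8), for Cd163 (41.6 CPM, others 0.642 to 9.67), for Fech (17.2 CPM, others 10.6 to 12.3), for the summed resident macrophage markers (1223 CPM, others 93.2 to 394) and for the summed erythroid genes (19.96 CPM, others 1.604 to 7.89). These 5 all lie on the high side in the same mouse, and the cause was not tested.

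Aged 4 had the highest Ncoa4 level among the aged mice at 251 CPM, and young 10 the highest among the young at 244 CPM. Aged 7 had the highest Nfe2l2 level among the aged at 237 CPM. Young 5 stood apart for Herc2 at 213 CPM, young 6 for Cpox at 3.06 CPM and young 1, on the low side, for Hfe at 0.195 CPM.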

How the results depend on the processing

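The number of genes called was 3387 to 4739 over the tools, scalings, filters and corrections, against 4425, and 3804 to 4717 with a mouse left out. With library totals in place of TMM factors, 37.8% of the calls were higher in aged mice, against 49.4%. Hmox1 and Slc11a1 kept their calls under every setting that was run. Gene length correction left 4 of the 9 tested genes called, beside 3387 of 9742 of all genes tested. Under it Fth1 at 0.22, Ftl1 at 0.16, Hp at 0.24 and Tfrc at -0.28 lost the call, and Ireb2 turned to 0.14. It also turned Aco1 (0.068), Blvra (-0.019), Flvcr1 (0.082), Lcn2 (-0.059) and Nfu1 (-0.086). Library totals gave Slc40a1 0.24 and Cd163 2.43 without a call, Ireb2 -0.21 with one, and turned Bach1 (-0.050), Cpox (-0.018), Exoc6 (-0.045), Keap1 (-0.040) and Ncoa4 (-0.079). Limma-voom gave Cd163 0.57 without a call and turned Cpox (-0.013) and Lrp1 (-0.19), upper quartile factors turned Flvcr1 (0.000675), and no filter turned Ncoa4 (-5.55e-04). With the length correction 1 heme synthesis gene and 2 of iron-sulfur cluster assembly were called lower, against 0 of each. Of all genes tested, 1604 of 9742 were called lower in that fit. The cause of these shifts was not tested.

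Leaving out 1 mouse gave 5 to 8 called genes, with Fth1 at 0.36 to 0.53 (call lost in 6 of 12 fits), Slc40a1 at 0.25 to 0.37 (3 of 12) and Cd163 at 0.81 to 2.73 (8 of 12). Genes without a call turned sign in such fits, with ranges of -0.030 to 0.039 for Ncoa4, -0.11 to 0.0082 for Aco1, -0.017 to 0.083 for Bach1, -0.00178 to 0.45 for Blvra, -0.34 to 0.34 for Lrp1, -0.19 to 0.30 for Cpox and up to 0.00228 for Mcoln1. With a mouse left out, 0 to 2 regulators were called higher and 0 to 1 heme synthesis genes lower. Of all genes, 1864 to 2366 were called higher and 1940 to 2351 lower in these fits. Without aged 1 and aged 2, 5 of the 10 genes were called (3799 of 9845 of all genes), Fth1 had 0.38, Slc40a1 0.29 and Cd163 -0.25. Aged mice numbered 17 to 19 gave Tfrc -0.46 and Hp 0.40 without a call. Those numbered 24 to 26 left 3 called, with Fth1 0.31, Ftl1 0.50, Slc40a1 0.26, Tfrc -0.48 and Cd163 -0.036. All 3 of these splits were chosen after seeing the data.

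The numbers 1, 2, 5 and 6 occur in both ages. Deviations of mice with the same number had correlations of -0.25 to -0.07 and none was most like its namesake. No pairing by number was detected in these few pairs, which are too few to settle whether there is one. In the block 3 heme synthesis genes were called higher, against 5. In the block Lcn2 (0.44) and Iscu (0.47) had no call and Trf gained one (0.66). Alas1 had no call in the block (0.22) or in the aged mice numbered 17 to 19 (0.13), and Abcb6 none in the block (0.66), without aged 1 and aged 2 (0.44) or in the aged mice numbered 24 to 26 (0.41). A replicate block on these 8 mice called 3446 genes, against 4394 in the same mice without it, kept 8 of the 10 genes called and turned Cpox (-0.10), Lrp1 (-0.22) and Ncoa4 (-0.013). Depth limits Hpx and Cd163, which had 6 to 11 counts in 3 aged mice while each young mouse had 9 to 20.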

Other observations

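Other genes that hold the hairpin letters with a paired stem were read from the same fit. Of 7 further tested genes with 1 in the 5′ untranslated region, Vti1b was called higher (0.40), Malt1 was called lower (-0.32) and 5 were not called, with a median log2 fold change of 0.14. Of 59 further tested genes with at least 1 in the 3′ untranslated region, 6 were called higher and 18 lower, with a median of -0.11, beside 22.4% higher and 23% lower over all genes tested. Most of these genes are not known targets of iron regulatory proteins, and Vti1b and Malt1 were named after their values were seen. Neither group was matched to all genes tested for gene length, and the correction for gene length moved log2 fold changes above.

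The summed level of the 10 genes was 4034 to 5445 CPM in the aged and 2639 to 4178 CPM in the young mice, with aged 7 within the young range. Hp made up 38.0% to 50.0% of that sum in the aged and 40.4% to 44.2% in the young mice, so the share of haptoglobin in it overlapped between the ages.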
